A study of Mus musculus with 9 samples.

Results

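Interferon-gamma, the chains of its receptor and a pair of receptor chains for type 1 cytokines were followed in mouse CD8 T cells made tolerant in vivo. The genes were chosen by name: Ifng, Ifngr1, Ifngr2, Il12rb2 and Il27ra. Each was represented by 1 probe set, so 5 of the 1246 probe sets and 5 of the 909 named genes of the array are described. The study asked how protein glycosylation differs between deletion and anergy, both forms of immune tolerance. The cells were CD8 T cells of female B10D2 mice carrying a transgenic T cell receptor, and RNA was measured on 9 single-colour GLYCOv4 arrays, a custom Affymetrix design centred on glycosylation genes. Naive transgenic cells were the control (3 arrays). Purified cells under deletion conditions had received a weak signal of their cognate antigen in vivo (3 arrays), and those under anergy conditions a strong one (3 arrays). All 3 groups carried the transgene, while the labels leave unnamed the transgene, the antigen dose, the time after antigen and the age of the mice. Replicates are numbered but not tied to animals, so the p-values rest on a spread between samples that may be technical.

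Interferon-gamma is the signature cytokine of type 1 immunity and is made by activated CD8 T cells and natural killer cells. It binds a receptor of a ligand-binding chain, encoded by Ifngr1, and a signalling chain, encoded by Ifngr2, and signals through Jak kinases. T cells in a type 1 response keep the second chain low, which lessens their own response to the cytokine. Il12rb2 encodes the inducible chain of the interleukin-12 receptor, which signals through Stat4 to the Ifng gene. Il27ra encodes the specific chain of the interleukin-27 receptor, which pairs with gp130, the product of Il6st.

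The promoters of the only gene of the 5 that rose in both antigen-experienced groups, Ifng, and of the receptor chains that fell together, Ifngr1 and Ifngr2, are printed for orientation. They are the 250 bases before the start site in the RefSeq promoter table of GRCm38.p6, all on the plus strand, and are reference sequence and not that of the B10D2 strain. Capitals mark 3 motifs searched on both strands: the TATA box (TATAAA), the GC box (GGGCGG, or CCGCCC on the other strand) and the interferon-gamma-activated site (TTCNNNGAA). Neighbouring GC boxes may overlap.
Ifng, chr10:118440796-118441045: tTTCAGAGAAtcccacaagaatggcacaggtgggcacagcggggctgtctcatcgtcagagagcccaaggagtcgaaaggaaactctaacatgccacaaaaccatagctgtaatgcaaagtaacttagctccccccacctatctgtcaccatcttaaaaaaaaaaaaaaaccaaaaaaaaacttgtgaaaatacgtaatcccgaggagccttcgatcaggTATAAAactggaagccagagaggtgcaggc
Ifngr1, chr10:19591699-19591948: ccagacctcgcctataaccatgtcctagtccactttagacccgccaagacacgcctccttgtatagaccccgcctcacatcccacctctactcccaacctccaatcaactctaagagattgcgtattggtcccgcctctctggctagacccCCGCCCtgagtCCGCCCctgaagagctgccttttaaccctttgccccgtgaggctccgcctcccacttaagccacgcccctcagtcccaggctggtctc
Ifngr2, chr16:91546809-91547058: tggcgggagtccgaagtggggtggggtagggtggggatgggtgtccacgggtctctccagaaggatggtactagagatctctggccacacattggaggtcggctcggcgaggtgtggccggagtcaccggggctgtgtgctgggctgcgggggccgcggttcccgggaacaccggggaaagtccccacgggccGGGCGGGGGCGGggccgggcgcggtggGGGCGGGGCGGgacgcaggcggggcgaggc

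The Ifng window held 1 TATA box, beginning 30 bases before the start site, 1 interferon-gamma-activated site beginning 249 bases before it, and 0 GC boxes. The Ifngr1 window held 2 GC boxes and the Ifngr2 window 4, and neither held the other motifs. The GC content was 45.2% for Ifng, 59.2% for Ifngr1 and 74% for Ifngr2, beside a median of 52.4% over all 32851 promoters of the table. A TATA box occurred in 12.4% of those promoters, a GC box in 32.7% and an interferon-gamma-activated site in 7.02%. The promoter of Il12rb2 held 1 interferon-gamma-activated site and 0 of the other motifs at a GC content of 50%. These matches describe letters only. Promoters of 4 of the 5 genes were in the table, and that of Il27ra was not matched.

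Expression is given as deposited, in log2 units. Differences were tested with limma over all 9 arrays, and a gene passed at a Benjamini-Hochberg adjusted p under 0.05, taken over the 1246 probe sets. Array medians lay between 4.44 and 4.58. Replicates of a group correlated at 0.995 or more across probe sets, and anergy replicate 3 deviated most from its group (residual SD 0.166, where the other 8 arrays had 0.094 to 0.128, log2). Of 12 T cell identity markers only Cd2 was measured (9.33 to 11.68 on all arrays), and it fell in both antigen-experienced groups. The others, Cd8a, Cd8b1 and Cd3e among them, were not matched to a probe set here, so the labelled cell type was not checked. In bulk RNA, fewer cells of a type and less RNA per cell cannot be told apart.

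All 5 genes passed in both comparisons with naive cells, and for all 5 the arrays of the groups did not overlap. Against naive, 1 rose and 4 fell in deletion, while 2 rose and 3 fell in anergy. Of all 1246 probe sets, 19.0% passed in deletion against naive (8.51% higher and 10.5% lower), and 26.8% passed in anergy against naive (10.8% higher and 16.1% lower). Groups did not overlap for 31.5% of probe sets in the first comparison (14.2% higher, 17.3% lower) and 33.9% in the second (13.2% higher, 20.7% lower). The genes were picked with results of these data known, so the count of 5 of 5 describes them and tests nothing. Both comparisons share the naive arrays, and their values are given side by side only.

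**Figure D1:**
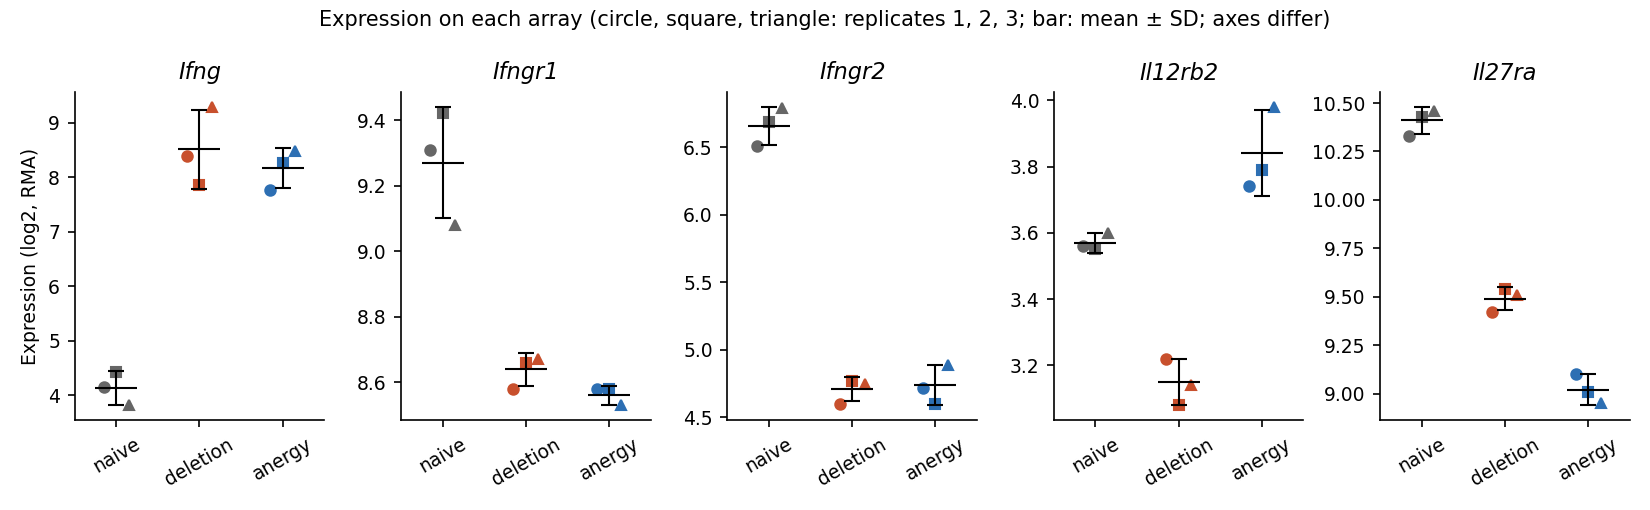
Expression of the 5 genes on each array, in log2 units, with 1 panel per gene and separate axes; symbols are arrays, and bars are the group mean ± SD (n = 3 arrays). Ifng lies at 3.82 to 4.43 in naive cells and at 7.76 to 9.29 on the other arrays, and Il12rb2 is lowest in deletion and highest in anergy.

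Ifng, the ligand, had log2 values of 4.15, 4.43 and 3.82 in naive replicates 1 to 3, of 8.39, 7.85 and 9.29 in deletion replicates 1 to 3, and of 7.76, 8.26 and 8.48 in anergy replicates 1 to 3. Every antigen-experienced array was above every naive array, and the deletion and anergy arrays overlapped. Ifng rose 20.8-fold in deletion, from 4.13 ± 0.31 to 8.51 ± 0.73 (SD, n = 3 in each group; 95% limits of the fold 12.5 to 34.5; limma adjusted p = 5.64e-06). It rose 16.4-fold in anergy (9.85 to 27.2; 8.17 ± 0.37; limma adjusted p = 9.01e-06). Among the named genes with a higher value than in naive cells, this was rank 2 of 388 in deletion and rank 5 of 467 in anergy. The naive Ifng values lay below the array medians of 4.44 to 4.58. How much of them is background is not known, so the folds may not be ratios of transcript.

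The spread of Ifng between replicates was wide, with a standard error that exceeded those of 99.3% of the 909 genes. Deletion replicate 3 had the highest value. Of the 4 measured natural killer cell markers, 1 was highest on the same array, Klra9, a Ly49 receptor (5.87, against 4.25 to 5.03 elsewhere), and the other 3, Klra8, Klra4 and Klrk1, were higher on another array. Of the 8 measured macrophage and dendritic cell markers, 1 was highest there, Csf1r (5.71), 1 was tied, Mrc1, and 6 were higher on another array. Of the 4 measured B cell markers, 2 were highest there, Cd22 and Cxcr5. Cd74, the class II invariant chain, which is on the interferon-gamma target list and is also a gene of antigen-presenting cells, was highest there too (8.46, against 5.92 to 7.70). Their part in the Ifng level was not tested, and without that array the Ifng rise in deletion was 3.99 ± 0.25 on the log2 scale (SE), compared with 4.38 ± 0.33 with it.

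Ifngr1, the ligand-binding chain, had log2 values of 9.31, 9.42 and 9.08 in naive replicates 1 to 3, of 8.58, 8.66 and 8.67 in deletion and of 8.58, 8.58 and 8.53 in anergy. All 6 antigen-experienced arrays lay below the lowest naive array, and 8.53 to 8.67 spanned them all. Ifngr1 fell 1.55-fold in deletion (1.36 to 1.77; limma adjusted p = 0.000403) and 1.63-fold in anergy (1.43 to 1.86; limma adjusted p = 0.000142).

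Ifngr2, the signalling chain, had log2 values of 6.51, 6.69 and 6.79 in naive replicates 1 to 3, of 4.60, 4.77 and 4.75 in deletion and of 4.72, 4.60 and 4.89 in anergy. Again no antigen-experienced array reached the naive range. The antigen-experienced values lay near the array medians of 4.44 to 4.58, and how much of them is background is not known. Ifngr2 fell 3.88-fold in deletion (3.34 to 4.51; limma adjusted p = 2.61e-07) and 3.8-fold in anergy (3.27 to 4.42; limma adjusted p = 2.1e-07). Among the named genes with a lower value than in naive cells, this was rank 7 of 510 in deletion and rank 10 of 432 in anergy, where Ifngr1 had ranks 47 and 65.

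On the log2 scale the Ifngr2 probe set fell further than that of Ifngr1 in both groups. The within-array difference, Ifngr2 minus Ifngr1, was -2.80 to -2.29 on the log2 scale in naive arrays, -3.98 to -3.89 in deletion arrays and -3.98 to -3.64 in anergy arrays. Its absolute size has no meaning, since the probe sets differ. Whether they respond alike to a change in transcript was not tested, so a larger fall of the Ifngr2 transcript is not shown. The change of this difference from naive was -1.32 in deletion and -1.22 in anergy, with no overlap between arrays. A two-sided exact permutation test gave p = 0.1 in both, the smallest that 3 arrays against 3 allow. Between deletion and anergy the change was -0.10 (exact permutation p = 0.5), with these 3 comparisons of the chains chosen after the values were seen and not adjusted.

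Il12rb2, the inducible interleukin-12 receptor chain, had log2 values of 3.56, 3.55 and 3.60 in naive replicates 1 to 3, of 3.22, 3.08 and 3.14 in deletion and of 3.74, 3.79 and 3.98 in anergy. The 3 groups did not overlap, with deletion lowest and anergy highest. It fell 1.34-fold in deletion (1.19 to 1.51; limma adjusted p = 0.00243) and rose 1.20-fold in anergy (1.07 to 1.35; limma adjusted p = 0.0234). The rise in anergy did not pass without naive replicate 1 (0.26 ± 0.09, limma adjusted p = 0.0679) or naive replicate 2 (0.26 ± 0.09, limma adjusted p = 0.0749). The rise was smallest without anergy replicate 3, at 0.195 ± 0.06, and still passed (limma adjusted p = 0.037). That array had the highest Il12rb2 value and deviated most from its group over all probe sets. After quantile normalization the rise was 0.221 (limma adjusted p = 0.0118). This probe set was dim, at a mean of 3.52 over the 9 arrays, and how much of its level is background is not known.

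Il27ra, the interleukin-27 receptor chain, had log2 values of 10.33, 10.43 and 10.46 in naive replicates 1 to 3, of 9.42, 9.54 and 9.51 in deletion and of 9.10, 9.01 and 8.95 in anergy. Naive was highest and anergy lowest, and again the 3 groups did not overlap. Il27ra fell 1.89-fold in deletion (1.70 to 2.10; limma adjusted p = 4.8e-06) and 2.61-fold in anergy (2.36 to 2.90; limma adjusted p = 1.56e-07). Its replicates lay close together, with SDs of 0.06 to 0.08 in the groups.

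**Figure D2:**
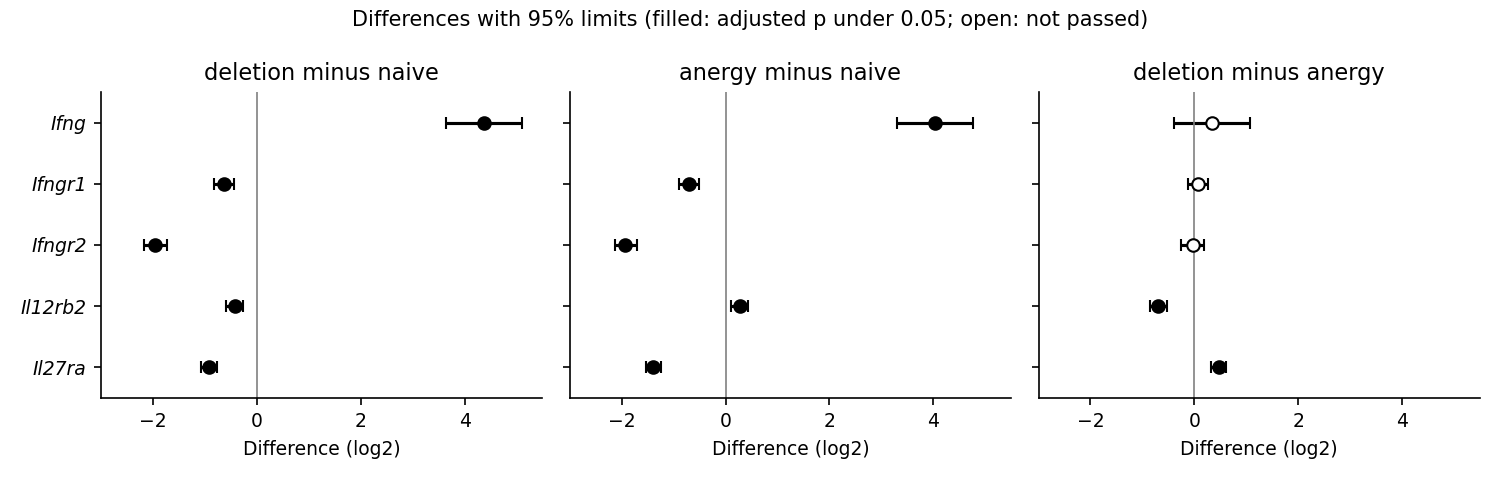
Log2 differences of the 5 genes in the 3 comparisons, with 95% limits from limma; filled points passed an adjusted p of 0.05 and open points did not. Against naive all 5 points are filled on both panels, and between deletion and anergy only Il12rb2 and Il27ra are filled.

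Between weak and strong antigen signal, the 2 type 1 cytokine receptor chains passed and the other 3 genes did not. Il12rb2 was 1.61-fold lower in deletion than in anergy (1.44 to 1.81; 3.15 ± 0.07 and 3.84 ± 0.13, SD, n = 3 each; limma adjusted p = 0.000567). Il27ra was 1.39-fold higher in deletion (1.25 to 1.54; 9.49 ± 0.06 against 9.02 ± 0.08; limma adjusted p = 0.00397). After quantile normalization the Il27ra difference was 0.31 on the log2 scale, compared with 0.47 as deposited, and it still passed (limma adjusted p = 0.0207). Of all probe sets, 3.37% passed in this comparison, 2.09% higher and 1.28% lower in deletion. Groups did not overlap for 2 of the 5 genes and for 16.6% of all probe sets (5.62% lower in deletion). Among the named genes lower in deletion, Il12rb2 had rank 8 of 486, and among those higher in deletion, Il27ra had rank 33 of 414.

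Ifng, Ifngr1 and Ifngr2 did not pass between deletion and anergy. The Ifng difference was 0.34 ± 0.33 on the log2 scale (SE; 95% limits -0.39 to 1.08; limma adjusted p = 0.664). As a fold of deletion over anergy it was 1.27 (0.763 to 2.11), an interval that holds no difference. The log2 difference became -0.05 without deletion replicate 3. The limits were narrower for Ifngr1, at -0.12 to 0.26 around 0.07, and for Ifngr2, at -0.25 to 0.19 around -0.03. A miss of the threshold does not show that the levels were equal.

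The wider cytokine network was read from lists of textbook genes. Of all 1246 probe sets, 19.0% passed in deletion against naive and 26.8% in anergy against naive. The counts of the lists were not tested against these shares. Of 5 measured type 1 cytokine ligands, Ifng and Il18 rose in both antigen-experienced groups and the other 3 did not pass in either. Il18, which works with interleukin-12 to induce interferon-gamma, had values of 3.79 to 3.87 in naive arrays, 4.82 to 5.01 in deletion and 4.97 to 5.58 in anergy. It rose 2.16-fold in deletion (limma adjusted p = 0.000245) and 2.62-fold in anergy (limma adjusted p = 3.58e-05). Il12a and Il27, which encode subunits of the ligands of the Il12rb2 and Il27ra chains, differed from naive by -0.02 ± 0.10 and 0.01 ± 0.11 in deletion and by 0.02 ± 0.10 and 0.19 ± 0.11 in anergy (log2, SE), and did not pass. The list had a median difference of 0.01 in deletion and 0.19 in anergy, and of -0.01 and 0.10 without Ifng, beside -0.02 and 0.01 over all named genes. The 0.19 is the Il27 difference, which did not pass (limma adjusted p = 0.242). Il27 had values of 6.24, 6.20 and 6.64 in anergy replicates 1 to 3 and 6.14 to 6.22 in naive. A general rise of the ligands is thus not shown by this median.

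In the receptor branch of gp130 and interleukin-12, 9 genes were measured. Against naive, 0 rose and 2 fell in deletion, Il27ra and Il12rb2, and 1 rose and 2 fell in anergy, where the additional fall was that of Il6st. Of all probe sets, 8.51% rose and 10.5% fell in deletion, and 10.8% rose and 16.1% fell in anergy. Il6st, the gp130 partner of Il27ra, had values of 9.53, 9.74 and 9.72 in naive replicates 1 to 3, of 9.27, 9.26 and 9.41 in deletion and of 9.05, 8.73 and 8.45 in anergy. The groups did not overlap. It fell 1.89-fold in anergy (1.54 to 2.33; limma adjusted p = 0.0005), and the deletion difference of -0.35 ± 0.13 did not pass (limma adjusted p = 0.116). Between deletion and anergy it differed by 0.57 ± 0.13 (limma adjusted p = 0.0516). Il12rb1, the constitutive partner of Il12rb2, was at 5.96 ± 0.09 in naive, 5.93 ± 0.19 in deletion and 6.22 ± 0.18 in anergy (SD), and no comparison passed. The median of the branch was -0.04 in deletion and 0.06 in anergy, and over the 7 genes other than Il12rb2 and Il27ra it was -0.03 and 0.06, with 0 passing in deletion in limma (1, Il6st, at an unadjusted p under 0.05) and 1, Il6st, in anergy.

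**Figure D3:**
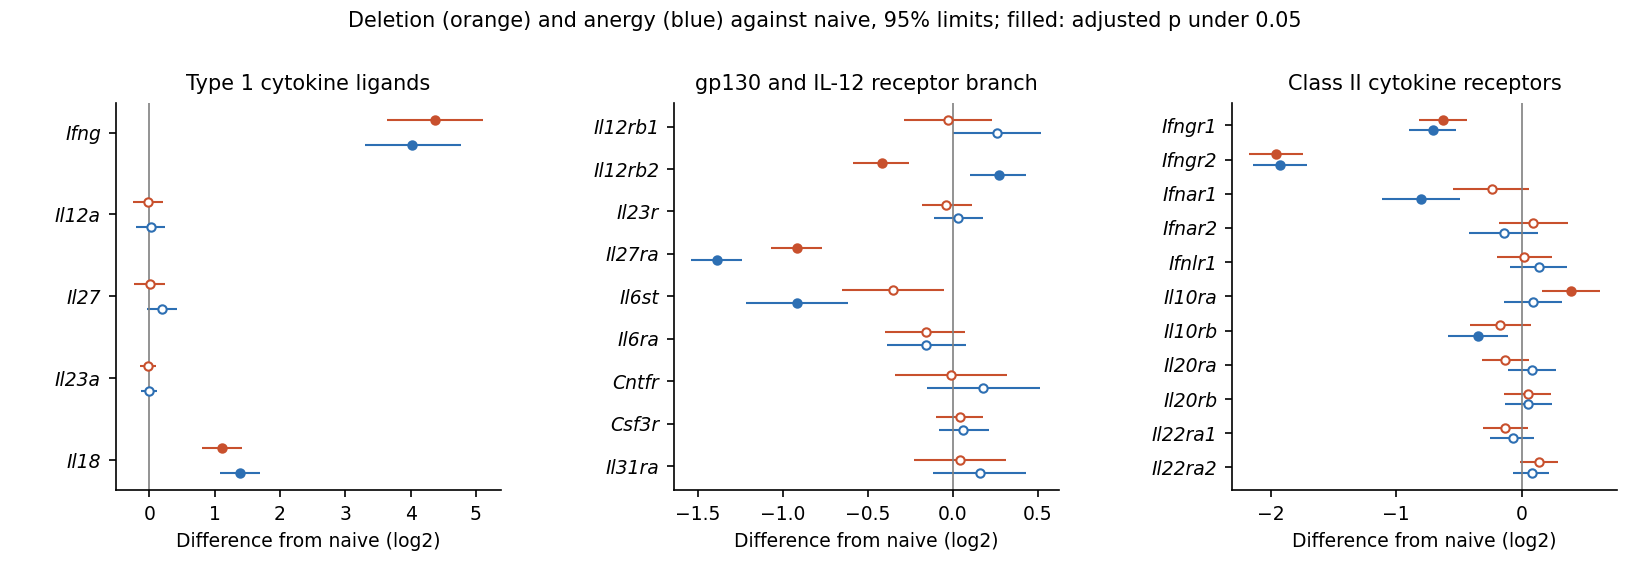
Log2 differences from naive, with 95% limits, of the measured type 1 ligands, of the gp130 and interleukin-12 receptor branch and of the class II cytokine receptors; orange is deletion, blue is anergy, and filled points passed an adjusted p of 0.05. In the class II panel the Ifngr2 points lie farthest to the left, at -1.96 and -1.93.

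Of 11 measured class II cytokine receptors, the family that holds the interferon-gamma receptor, 1 rose and 2 fell in deletion, and 0 rose and 4 fell in anergy. Both falls in deletion were those of Ifngr1 and Ifngr2, which were also 2 of the 4 in anergy. The family medians were -0.13 and -0.07 with these chains, and 0.02 and 0.05 over the other 9 receptors. Of those 9, 0 passed as lower in deletion (0 at an unadjusted p under 0.05 in limma) and 2 in anergy. Ifnar1, a chain of the type I interferon receptor, had values of 7.87, 8.11 and 7.95 in naive replicates 1 to 3, of 7.80, 7.73 and 7.67 in deletion and of 7.41, 7.30 and 6.82 in anergy. It fell 1.74-fold in anergy (1.41 to 2.15; limma adjusted p = 0.00138). The deletion difference of -0.24 ± 0.14 did not pass, though every deletion array lay below every naive array. Ifnar2, its partner, did not pass in either group, at 0.09 ± 0.12 and -0.14 ± 0.12. Il10rb, a chain shared by several receptors of the interleukin-10 family, fell by 0.35 on the log2 scale in anergy (limma adjusted p = 0.0381), a call that held in 8 of 17 alternative settings. It ended with median centring, with no moderation, with only the 2 groups fitted and on leaving out any single naive or deletion array. In deletion Il10rb differed from naive by -0.17 ± 0.11 and did not pass, though every deletion array lay below every naive array. Such separation below naive in deletion was seen for 17.3% of all probe sets. Il10ra, the interleukin-10 binding chain, rose by 0.39 in deletion (limma adjusted p = 0.0234), which 11 of 17 settings kept. The call ended with median centring, with no moderation and on leaving out naive replicate 2 or 3 or deletion replicate 2 or 3.

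Few downstream genes could be read. Of the 17 genes on the Jak and Stat list, 0 were measured. Of 9 type 1 transcription factors only Prdm1 was measured. Prdm1, which encodes the repressor Blimp-1, rose 1.65-fold in anergy against naive (limma adjusted p = 0.0011) and differed from naive by -0.08 in deletion. Its difference between deletion and anergy was -0.80 (limma adjusted p = 0.00514), a call lost only with no moderation. Of 21 interferon-gamma target genes 3 were measured, the chemokines Cxcl9 and Cxcl10 and Cd74. None of these 3 passed in limma in any comparison, and at an unadjusted p under 0.05 the count was 1 in deletion against naive, which was Cxcl9 (0.17 ± 0.07), and 0 in both other comparisons. Cd74 ranged from 5.92 to 7.70 in naive, 6.74 to 8.46 in deletion and 6.94 to 7.51 in anergy, a spread wider than any of its group differences. For the 4 measured type I and III interferons no comparison passed in limma. At an unadjusted p under 0.05 the counts were 0, 0 and 1.

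Cytokines of other response types were read for comparison. Of 11 measured type 2, type 17 and regulatory cytokines, 0 passed in deletion against naive (1 at an unadjusted p under 0.05), and 2 rose in anergy. These were Il21 at 0.53 ± 0.08 and Il10 at 0.35 ± 0.10 on the log2 scale (SE; limma adjusted p = 0.000791 and 0.0214). Deletion minus anergy was -0.56 for Il21 (limma adjusted p = 0.00514) and -0.33 for Il10, which did not pass. Their anergy values, 2.54 to 2.79 and 3.12 to 3.31, were near the lowest on the arrays. The Il10 call was lost without naive replicate 1, naive replicate 2 or anergy replicate 3 and with no moderation. Il4, Il5, Il13, Il17a and Il17f did not pass in either group. Among 12 receptors for these cytokines, 2 rose and 3 fell in deletion, and 1 rose and 3 fell in anergy. Over all probe sets, 19.0% passed in deletion and 26.8% in anergy, in either direction.

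Il21r, Il4ra and Il17ra fell in both groups. Il21r, the interleukin-21 receptor, fell by 0.73 in deletion and by 0.99 in anergy, Il4ra, the interleukin-4 receptor chain, by 0.76 and 0.63, and Il17ra, a chain of the interleukin-17 receptor, by 0.45 and 0.75 (log2). The Il17ra call in deletion held in 12 of 17 settings, and not after median centring, without moderation or without naive replicate 2, naive replicate 3 or deletion replicate 3. Il1rl1, the interleukin-33 receptor, rose 5.19-fold in deletion and 18.7-fold in anergy by its brighter probe set. By that probe set deletion minus anergy was -1.85 on the log2 scale (limma adjusted p = 0.000252). The other Il1rl1 probe set had means of 3.53 in naive, 3.63 in deletion and 3.74 in anergy. Il17rb rose by 0.49 in deletion, which 16 of 17 settings kept and no moderation did not (limma adjusted p = 0.0519).

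Genes with the most similar course were found by the root mean square difference over the 9 arrays, after subtraction of each gene's naive mean, among 908 other genes. The closest to Ifng was Ccl3, a chemokine of activated T cells, at 0.25 on the log2 scale, followed by the sulfotransferase Chst2 at 0.55 and the chemokine Ccl4 at 0.58. The median gene was 3.47 away. Ccl3 had values of 3.78 to 3.94 in naive, 7.79 to 8.75 in deletion and 7.70 to 8.14 in anergy, and it too was highest in deletion replicate 3.

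The closest to Il27ra were Galnt11, which starts O-linked glycans, and Xylt2, which starts glycosaminoglycan chains, both at 0.13, and Tgfbr2, a receptor chain for transforming growth factor beta, at 0.14, where the median gene was 0.97 away. All 3 were lower in anergy than in deletion on average, by 0.49, 0.51 and 0.46. For Ifngr1 the closest were Angptl6 at 0.05, and Icam2 and St3gal3 at 0.09, with a median of 0.56. For Ifngr2 they were Cd2 at 0.32, Galnt6 at 0.33 and Cd72 at 0.37, with a median of 1.59. For Il12rb2 they were Muc1 at 0.19, and Fgfr3 and Il20ra at 0.20, with a median of 0.33. Muc1 differed from naive by -0.27 in deletion and 0.01 in anergy, where Il12rb2 differed by -0.42 and 0.27. The median distance grows with the size of a gene's own change, so it is not compared between the 5 genes.

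**Figure D4:**
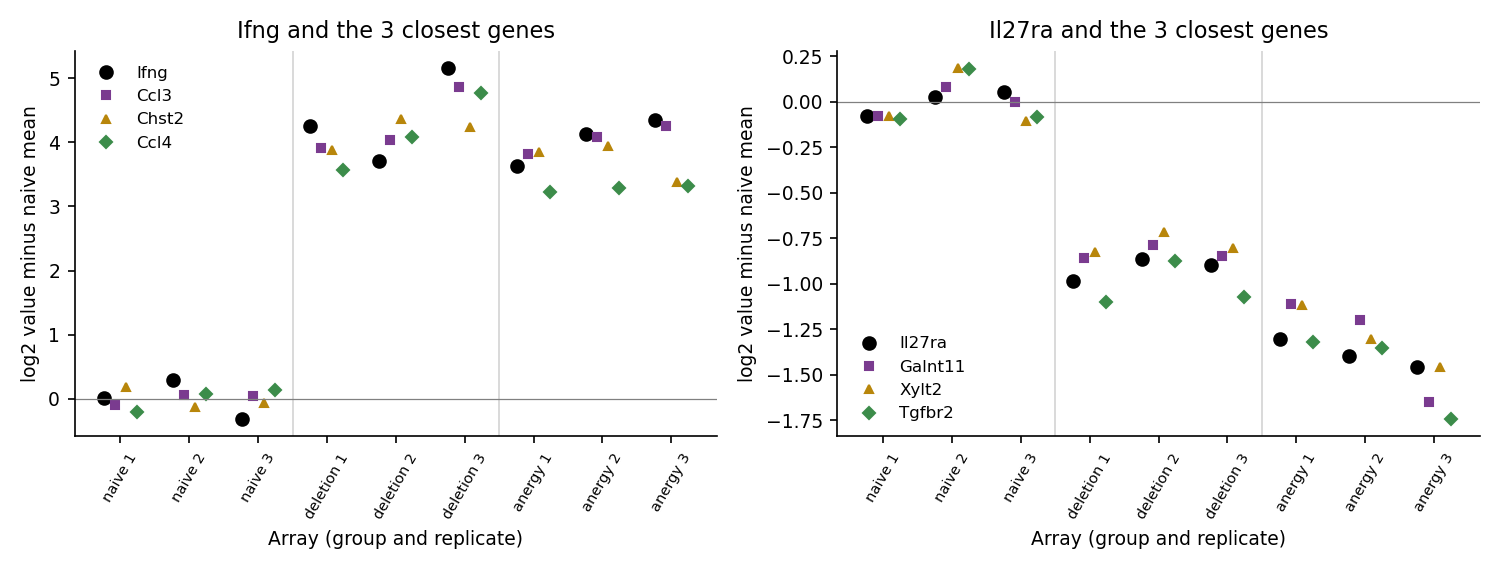
Log2 values minus the naive mean on each of the 9 arrays for Ifng (left) and Il27ra (right), each with its 3 closest genes; symbols are single arrays, slightly offset, and vertical lines part the groups. Ccl3 lies nearest to Ifng, with both highest in deletion replicate 3, and Il27ra and its closest genes step down from naive to deletion to anergy.

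Markers of other cells were measured only in part. Of 8 natural killer cell markers 4 were measured, and their summed linear level was 44 to 54 in naive, 44 to 82 in deletion and 46 to 52 in anergy. Of these, 0 passed in deletion in limma (0 at an unadjusted p under 0.05), and 1, Klrk1, the activating receptor NKG2D that CD8 T cells also carry, rose in anergy. The defining marker Ncr1 was not matched to a probe set here. For 4 of 10 B cell markers the sums were 610 to 680, 404 to 574 and 376 to 433. Linear sums mainly follow the brightest gene, which in naive cells was Cd72 (log2 mean 8.87, against 6.24 for Cd22 and 6.39 for Cxcr5). Cd22 rose and Cd72 fell in both groups, and Cxcr5 rose in deletion. The Cxcr5 call was kept by 13 of 17 settings and ended with no moderation and on leaving out naive replicate 1, naive replicate 3 or deletion replicate 3 (highest limma adjusted p 0.0774). For 8 of 18 macrophage and dendritic cell markers the sums were 218 to 226, 172 to 204 and 175 to 182. Ly75, the brightest of them in naive cells (log2 mean 6.65), was lower in both groups, and the others did not pass the threshold. Of the CD4 and regulatory T cell list only Il2ra was measured, which activated CD8 T cells express too. Il2ra rose in anergy (1.16 ± 0.11) and did not pass in deletion (0.11 ± 0.11). Its difference between deletion and anergy was -1.05 (limma adjusted p = 0.000525). Cd2, of the T cell list, fell by 1.57 in deletion and by 2.18 in anergy. The part of these cells in the interferon-gamma and receptor values was not tested.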

How the data were processed

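RNA of 9 samples of transgenic CD8 T cells, 3 per group, was hybridised to single-colour arrays. Per the labels, total RNA was extracted with Trizol and 0.5 micrograms of it was made into biotin-labelled cRNA. The authors deposited 1 log2 value per probe set and array, made by RMA per the submitters' processing notes, which name no other tool. The version and the array annotation are not given in the sources used here, and the log2 scale was read from the method's name and the range of 1.67 to 13.86.

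Probe sets were named by RefSeq accession without version through a GRCm38.p6 gene table, used for names only, which named 963 of 1246 (77.3%) as 909 genes. For genes with more than 1 probe set, the brightest by mean was taken. Values were used as deposited, with no filter, and limma 3.58.1 under R 4.3.3 was fitted to all 9 arrays without a block, giving 6 residual and 3.65 prior degrees of freedom. Tests were two-sided. Benjamini-Hochberg adjustment ran over all 1246 probe sets of a comparison. Precision is limited by having 3 arrays in each group.

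The 5 genes and the lists were chosen with earlier results of these data known. Up to 4 passing genes of each list, by smallest adjusted p, were named, with the 3 closest genes of each member; other genes named were chosen after their values were seen, as members of a list. For deletion and anergy arrays of the same replicate number, deviations from the group means correlated at r = 0.195, 0.27 and 0.28. The labels state no pairing, and arrays of different replicate number were not correlated for comparison. For anergy and naive arrays r was -0.154, 0.274 and 0.175, and for deletion and naive arrays -0.136, 0.118 and -0.142. Whether these values reflect pairing was not tested. The fit was also tried on simulated data, drawn 10 times with 200 of 1246 probe sets changed. Recovery in the comparison of deletion with anergy was 94.6% for log2 changes of 0.5 and 99.5% for changes of 1. In the data themselves 42 probe sets passed in this comparison. Il21 at -0.56 and Cd2 at 0.61 were among them, with the Cd2 call held in 7 of 17 alternative settings. Il6st at 0.57, Ifnar1 at 0.56 and Cxcr5 at 0.53 did not pass. The recovery rates therefore describe the simulation only and set no bound on the differences of genes that did not pass. Alternatives were scalings, a filter, weights, priors, a block and leaving out each array.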

Additional observations from a re-analysis of the deposited data

How the results depend on the processing

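Each difference of the 5 genes was recomputed under 17 alternatives, and under 16 for Il12rb2, which the filter on dim probe sets removed. All 5 differences in deletion against naive, those of Ifng, Ifngr1, Ifngr2 and Il27ra in anergy against naive, and those of Il12rb2 and Il27ra between deletion and anergy kept their direction and stayed past the threshold under every alternative run for them. The rise of Il12rb2 in anergy ranged from 0.195, without anergy replicate 3, to 0.315 when 1 array was left out. It did not pass without naive replicate 1 (0.262) or naive replicate 2 (0.257). With 1 array left out its highest adjusted p was 0.0749.

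The 3 differences between deletion and anergy that did not pass all turned sign under some setting. Ifng ranged from -0.0467 to 0.673 with 1 array left out, negative without deletion replicate 3. Ifngr1 was -0.0683 after quantile normalization. Ifngr2 was 0.00333 after quantile normalization, 0.00667 after median centring and 0.0259 with array weights, and it ranged from -0.0983 to 0.0467 with 1 array left out. The cause was not tested.

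The replicate block changed no call of the 5 genes: for Il12rb2 and Il27ra between deletion and anergy it gave -0.69 and 0.47 with limma adjusted p of 0.0018 and 0.00939. With the block 33 probe sets were higher and 22 lower in that comparison, beside 26 and 16 without it. Those counts were 32 and 38 after quantile normalization, 13 and 13 after median centring, 44 and 31 with array weights, 5 and 9 with no moderation and 8 higher with only the 2 groups fitted. They ranged from 8 to 30 higher and 12 to 19 lower with 1 array left out. The higher count fell to 8 when deletion replicate 2 was left out, to 14 for deletion replicate 3, to 15 for anergy replicate 2 and to 17 for anergy replicate 3. At least 2-fold were 5 higher and 6 lower, and against naive 32 and 27 in deletion and 38 and 42 in anergy. Other probe sets of the 5 genes could not be tried, since each had 1. Signal over background was not known, which limits Il12rb2 most.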
